A study of Mus musculus with 10 samples.

Results

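The spliceosome genes described here are the 137 genes, of 18223 in the deposited gene table, that the table annotates to the KEGG pathway Spliceosome, after 5 heat shock genes of the Hspa family carrying the same annotation were left out. They were followed in 10 RNA-seq libraries of subcutaneous tumours of the MC38 line, which derives from a mouse colon adenocarcinoma. The labels assign 5 libraries to high tumour burden (HTB) and 5 to low tumour burden (LTB). The treatment label reads 2000000 for HTB and 500000 for LTB, each for 14 days, with no unit. Strain, sex and age of the mice, and any further treatment, do not appear in the labels read here, and the groups share the cell line, the site and the time. The labels do not say that the libraries came from separate animals, so p-values measure the spread between these libraries, which may be technical.

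Splicing removes introns from pre-mRNA. Small nuclear ribonucleoproteins (snRNPs) recognise the splice sites: U1 binds the 5' splice site, U2 the branch point, and the U4/U6.U5 tri-snRNP joins before RNA helicases and the Prp19 complex remodel the assembly for catalysis. SR proteins and hnRNPs help to decide which sites are used, and the exon junction complex marks the spliced mRNA. The machinery is needed in all nucleated cells, so whole-tumour RNA holds transcripts from tumour cells and from every infiltrating cell, and fewer cells of a type cannot be told apart from less RNA per cell.

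Total estimated reads ran from 23070917 to 27185168 per library. Levels are given in CPM, the count scaled to the reads of the library after adjustment by edgeR's scaling factor for that library (TMM). Some marker lists moved with the groups, where 3.91% of all tested genes were higher in HTB and 7.51% lower. Among neutrophil, B cell, fibroblast, endothelial and adipocyte markers, 0 were called in edgeR's test. Of 7 tested T cell markers 5 were lower in HTB, with a summed level of 16.2 to 41.2 CPM against 41.6 to 185 CPM in LTB. Of 9 macrophage markers 2 were lower in HTB (733.9 to 1291 against 1144 to 2286 CPM). HTB replicate 2 stood apart, with 13200 CPM of skeletal muscle markers against 4.01 to 48.0 CPM in the other libraries. It also had 2904 CPM of adipocyte markers against 79.5 to 264.5 CPM, and 291.6 CPM of endothelial markers against 76.6 to 119.5 CPM. Of 4 tested muscle markers 3 were called higher in HTB. Epithelial markers were sparse (2.78 to 16.2 CPM summed, with Krt18 at 0 in all LTB libraries), and 1 of 2 tested was called lower in HTB. Of 12 proliferation markers, 1 was lower in HTB and 0 were higher in edgeR's test (2148 to 2689 against 2389 to 3005 CPM, and 4 at an unadjusted p under 0.05). The part of these cell types in the results below was not tested.

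The spliceosome genes as a group had a summed level that differed between the 2 groups by less than the spread within either. Their summed level was 19520 ± 542.5 CPM in HTB and 19420 ± 641.9 CPM in LTB (SD, n = 5 each). In HTB replicates 1 to 5 it was 19440, 19960, 19680, 19890 and 18620 CPM, and in LTB replicates 1 to 5 it was 20240, 19180, 19810, 19320 and 18550 CPM. The groups overlapped throughout, and the genes together made up 1.86% to 2.02% of the TMM-scaled library total.

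Of the 137 genes, 125 had enough reads to be tested, and 12 did not. Of those 12, 5 had 0 reads in all libraries; the best covered, LOC100862468, a copy of the gene for the U4 snRNA-binding protein Snu13, had 131 reads in all. No tested member passed an adjusted p of 0.05 in edgeR's quasi-likelihood test in either direction: 0 rose and 0 fell in HTB, against 3.91% of all 13469 tested genes that rose and 7.51% that fell, 11.4% in all. At an unadjusted p under 0.05 there were 18 members (14.4%), 7 higher and 11 lower, beside 29.1% of all tested genes. The smallest adjusted p was 0.0661, for Puf60. By DESeq2's Wald test 5 members passed (14.3% of all genes did), and by limma voom 0 did.

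The absence of calls went with small estimated differences. The median size of the log2 fold change was 0.08 among members and 0.16 among all tested genes, and the median signed value was 0.00 against 0.02 (58 positive and 67 negative). The median SE was 0.08 against 0.11, and the median coefficient of variation across the 10 libraries was 8.58% against 14.2%. Members were also better expressed, with a median of 96.2 CPM against 32.7 CPM. Among the 6745 genes between 30.5 and 496.3 CPM, 716 (10.6%) passed, with a median coefficient of variation of 10.98% and a median absolute log2 fold change of 0.12. For 119 of 125 members (95.2%) the estimated fold change was within 1.2-fold in either direction, compared with 66.4% of all genes. For 121 (96.8%) the 95% interval of the difference lay within 1.5-fold, compared with 64.8%. The 4 members whose interval reached past 1.5-fold were Gramd2, Phf5a, Sf3b5 and Snrpd3.

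**Figure D1:**
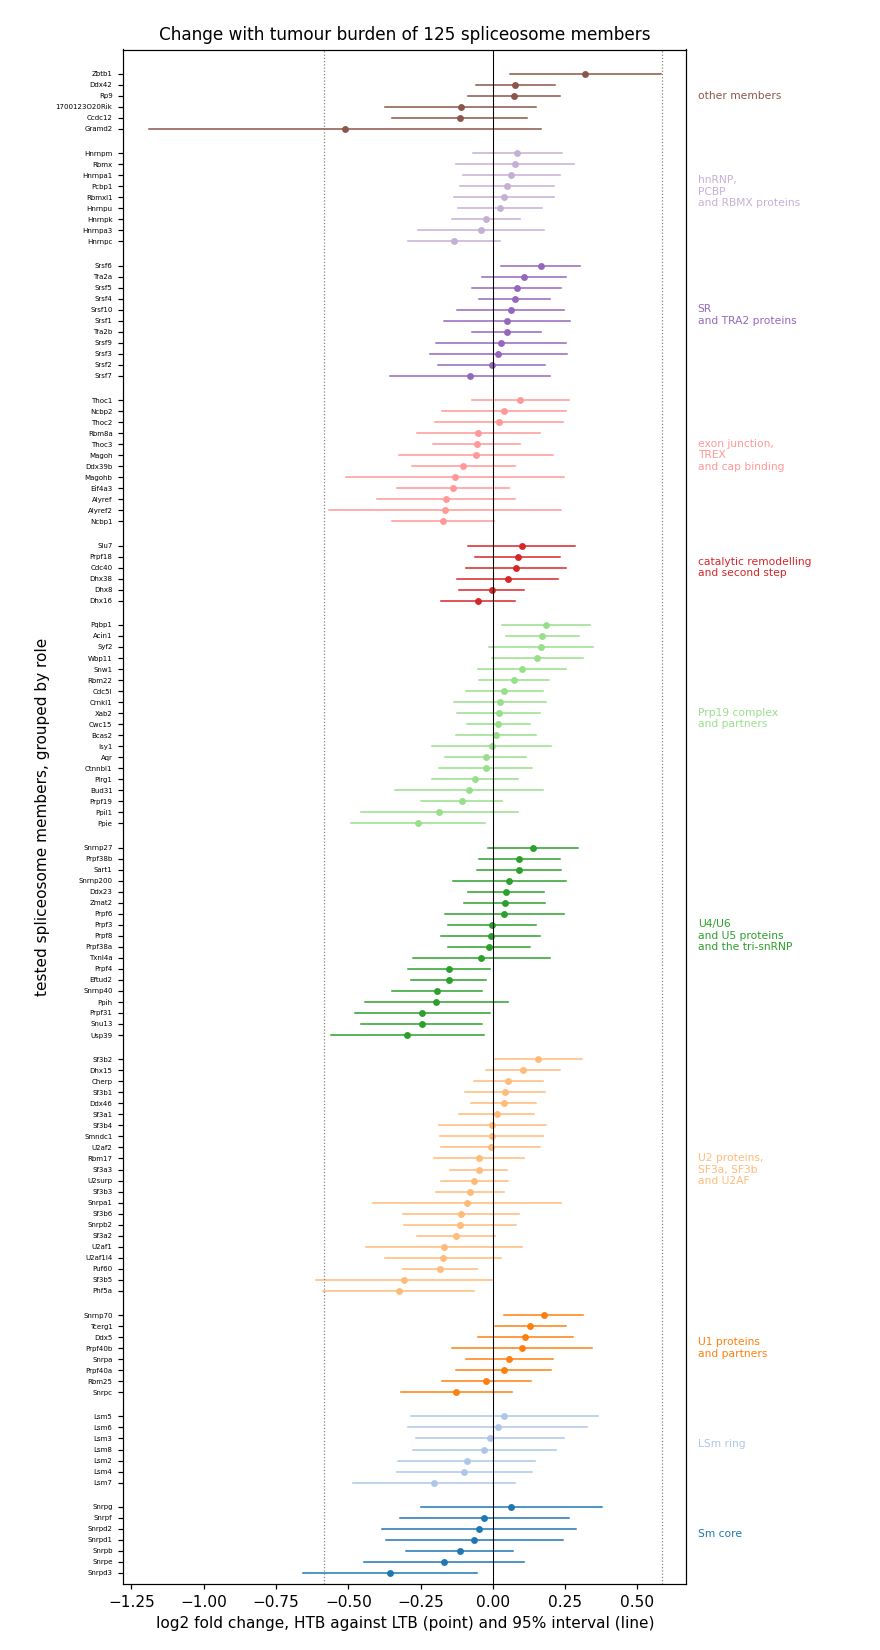
Log2 fold change (HTB against LTB, horizontal axis) with its 95% interval for each of the 125 tested members, grouped by role; dotted lines mark 1.5-fold. Intervals of 121 members lie between the dotted lines, and no role class lies wholly on one side of 0.

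Promoter windows in RefSeq (GRCm38.p6, 250 bases before to 50 after the transcript start) were matched for 107 members, 98 of them tested. The ETS motif CCGGAAG, searched on both strands, was in 38.8% of these 98 windows (38), in 17.8% of the windows of tested genes and in 14.3% of all 14248 windows. The NF-Y motif CCAAT was in 45.9% against 39.2% of tested genes, TATAAA in 11.2% against 7.37%, a YY1 motif in 4.08% against 2.04%, and an NRF1 palindrome (its letters are the capitals of the Snrnp70 window) in 2.04% against 2.02%. A median of 24 CpG dinucleotides fell in a member's window, against 20 in those of tested genes. The median GC content was lower in members' windows, at 58.7% against 60.7%. These matches describe letters, and no factor binding was measured. The windows below, printed 5' to 3' on the gene's strand with motif matches in capitals, are those of members described further on. Snrnp70 (chr7:45395693-45395992, minus strand, 2 NRF1 matches) and Srsf6 (chr2:162931258-162931557, plus strand, no match) did not overlap between the groups. Snrpd3 (chr10:75517792-75518091, plus strand, 2 NF-Y matches, 1 on each strand) had the lowest log2 fold change of the members with an assigned role. Acin1 (chr14:54686882-54687181, minus strand) and Snu13 (chr15:82047549-82047848, minus strand) each had 1 ETS match on the opposite strand. Among members with that motif and an assigned role, Acin1 and Snu13 had the smallest p in edgeR's test.
Snrnp70: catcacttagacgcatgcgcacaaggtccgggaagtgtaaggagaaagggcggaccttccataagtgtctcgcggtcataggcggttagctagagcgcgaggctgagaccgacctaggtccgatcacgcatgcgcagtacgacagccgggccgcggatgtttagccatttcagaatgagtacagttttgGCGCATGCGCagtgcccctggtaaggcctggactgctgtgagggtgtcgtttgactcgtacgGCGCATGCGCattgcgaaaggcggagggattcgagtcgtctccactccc
Srsf6: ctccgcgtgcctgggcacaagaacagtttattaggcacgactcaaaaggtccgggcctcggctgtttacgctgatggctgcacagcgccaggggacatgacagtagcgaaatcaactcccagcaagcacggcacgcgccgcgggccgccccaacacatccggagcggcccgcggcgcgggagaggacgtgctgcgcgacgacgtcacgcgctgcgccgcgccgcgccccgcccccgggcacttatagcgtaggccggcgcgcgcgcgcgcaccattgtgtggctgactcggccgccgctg
Snrpd3: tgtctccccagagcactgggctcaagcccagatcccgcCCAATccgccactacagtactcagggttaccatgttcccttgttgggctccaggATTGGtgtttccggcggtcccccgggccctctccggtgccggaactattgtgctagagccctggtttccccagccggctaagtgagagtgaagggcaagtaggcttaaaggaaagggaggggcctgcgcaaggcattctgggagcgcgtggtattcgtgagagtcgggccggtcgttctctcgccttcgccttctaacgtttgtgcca
Acin1: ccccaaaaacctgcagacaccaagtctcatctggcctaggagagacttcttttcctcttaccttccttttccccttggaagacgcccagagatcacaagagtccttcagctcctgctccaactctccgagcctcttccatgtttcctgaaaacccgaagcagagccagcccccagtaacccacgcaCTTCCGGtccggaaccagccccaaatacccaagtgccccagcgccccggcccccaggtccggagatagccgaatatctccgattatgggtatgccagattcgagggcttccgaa
Snu13: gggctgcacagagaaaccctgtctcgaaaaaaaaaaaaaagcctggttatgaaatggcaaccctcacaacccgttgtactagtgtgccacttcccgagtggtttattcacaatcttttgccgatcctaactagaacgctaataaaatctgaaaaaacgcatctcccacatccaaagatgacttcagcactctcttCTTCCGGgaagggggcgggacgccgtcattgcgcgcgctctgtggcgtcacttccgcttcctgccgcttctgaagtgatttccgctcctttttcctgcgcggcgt

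The Sm core, the ring of 7 proteins that U1, U2, U4 and U5 snRNPs share, had a median log2 fold change of -0.06, with 0 of 7 members called and 6 of 7 values negative. Its summed level was 656.3 ± 85.9 CPM in HTB and 703 ± 87.5 CPM in LTB (SD, n = 5). Per kilobase of annotated exon, Snrpf had the highest level of the ring (125.6 CPM per kb) and Snrpd3 the lowest (18.6 CPM per kb). Their annotated lengths were 861 and 3442 bases, so this order depends on the annotation. Snrpd3, which encodes SmD3, read 54.4, 75.3, 55.9, 49.8 and 44.8 CPM in HTB replicates 1 to 5, and 82.4, 62.5, 70.9, 64.0 and 79.0 CPM in LTB replicates 1 to 5. HTB replicate 2 lay above 3 of the LTB libraries, so the groups overlapped. The log2 fold change was -0.36 ± 0.14 (SE; 95% interval -0.66 to -0.06; edgeR adjusted p = 0.113). Snrpf itself was at 107 ± 18.1 CPM in HTB and 109.2 ± 16.0 CPM in LTB (adjusted p = 0.902 in edgeR's test).

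The LSm ring, which binds the 3' end of U6 snRNA, had 0 of 7 members called and a median log2 fold change of -0.03. Lsm7 had its smallest p, at 40.0 ± 5.47 CPM in HTB and 46.1 ± 7.56 CPM in LTB (log2 fold change -0.20 ± 0.13, edgeR adjusted p = 0.312). Lsm4, highest in level per length (54.2 CPM per kb), stood at 54.3 ± 8.18 and 58.1 ± 5.37 CPM (adjusted p = 0.567).

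Among the 8 genes of the U1 snRNP and its partners, 6 had positive values and 0 were called. Snrnp70, the U1-70K protein that binds U1 snRNA, read 232.1, 242.1, 233.3, 236.8 and 219.8 CPM in HTB and 209.7, 212.2, 217.8, 210.4 and 180.3 CPM in LTB. Every HTB library was above every LTB library, by a narrow margin between HTB replicate 5 and LTB replicate 3. Its log2 fold change was 0.18 ± 0.06 (edgeR adjusted p = 0.0903). Ddx5, an RNA helicase and the most abundant member of the class per length (179.2 CPM per kb), read 1075 ± 88.8 CPM in HTB and 994.4 ± 70.6 CPM in LTB, with overlapping groups (adjusted p = 0.342).

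The U2 class, with SF3a, SF3b and U2AF, recognises the branch point and the 3' splice site. It had 0 of 22 members called, with 16 negative values and a median of -0.06. Puf60, which acts with U2AF at the 3' splice site, read 179.5, 171.9, 174.6, 178.8 and 161.6 CPM in HTB and 201.9, 187.4, 185.5, 215 and 194.1 CPM in LTB. All HTB values were below all LTB values, and the log2 fold change was -0.18 ± 0.06 (edgeR adjusted p = 0.0661). Phf5a, a small subunit of SF3b, read 46.6, 47.8, 46.3, 44.5 and 38.3 CPM in HTB and 73.3, 46.1, 50.5, 57.4 and 53.0 CPM in LTB. LTB replicate 1 was far above the others, and LTB replicate 2 lay inside the HTB range (log2 fold change -0.33 ± 0.12, adjusted p = 0.09995 in edgeR's test). Sf3b3, the class's highest per length, differed by -0.08 ± 0.05 (617.8 ± 25.9 against 652.3 ± 25.9 CPM; adjusted p = 0.354).

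The tri-snRNP class (U4/U6 and U5 proteins) had 0 of 18 members called. Its summed level was 2355 ± 28.6 CPM in HTB and 2426 ± 21.2 CPM in LTB. HTB libraries lay at 2327 to 2389 CPM and LTB libraries at 2399 to 2455 CPM, and no other role class had separate ranges. This narrow gap depended on the scaling, as the TMM factors ran from 0.9747 in LTB replicate 5 to 1.029 in HTB replicate 3. The difference of sums was not tested. Snu13, which binds U4 snRNA, read 239.6, 248.3, 216.8, 237.2 and 209 CPM in HTB and 335.2, 232.8, 269.9, 269.9 and 257.3 CPM in LTB. LTB replicate 1 was highest and LTB replicate 2 fell among the HTB libraries (log2 fold change -0.25 ± 0.10, edgeR adjusted p = 0.117). Snrnp40, a U5 protein, stood at 64.5 ± 5.45 CPM in HTB and 73.8 ± 4.61 CPM in LTB (log2 fold change -0.19 ± 0.07, adjusted p = 0.0995). Prpf8, the scaffold of the catalytic centre, read 505.4 ± 20.3 and 507.9 ± 53.1 CPM, and its log2 fold change was -0.01 ± 0.08 (edgeR adjusted p = 0.962). It was chosen after its values were seen.

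The Prp19 complex and its partners had 0 of 19 members called and a median of 0.02. The summed level was 1710 ± 16.1 CPM in HTB and 1663 ± 23.9 CPM in LTB, with overlapping ranges of 1692 to 1724 and 1638 to 1695 CPM. Acin1 (acinus), an RNA-binding protein that joins exon junction complexes, was counted in this class and not with the exon junction genes. It read 285.8, 278.8, 298, 282.4 and 265.8 CPM in HTB and 236.2, 273.4, 241.3, 255.7 and 246.3 CPM in LTB. LTB replicate 2 lay above HTB replicate 5, and the log2 fold change was 0.17 ± 0.06 (edgeR adjusted p = 0.0802). Pqbp1, a polyglutamine-binding protein that interacts with splicing factors, read 54.9, 47.4, 54.3, 55.0 and 54.7 CPM in HTB and 45.8, 48.1, 41.6, 47.6 and 51.2 CPM in LTB (0.18 ± 0.07, edgeR adjusted p = 0.108). HTB replicate 2 was the one HTB library inside the LTB range. Cwc15, highest of the class per length, read 96.4 ± 3.98 and 95.1 ± 3.36 CPM (adjusted p = 0.825).

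The remodelling helicases and second-step factors had 0 of 6 called. Prpf18, needed in the second step, read 44.3 ± 3.24 CPM in HTB and 41.8 ± 2.31 CPM in LTB (log2 fold change 0.09 ± 0.07, edgeR adjusted p = 0.416), and Dhx38, a helicase acting before that step, 125.6 ± 13.8 and 121.2 ± 6.44 CPM (adjusted p = 0.699). The exon junction, TREX and cap-binding genes had 0 of 12 called, 9 of them with negative values. Ncbp1, the large cap-binding subunit, read 119.1 ± 5.25 CPM in HTB and 134.1 ± 15.5 CPM in LTB (log2 fold change -0.17 ± 0.08, edgeR adjusted p = 0.182). Magoh, an exon junction core protein, read 82.1 ± 3.86 and 85.5 ± 17.1 CPM (adjusted p = 0.779), although reads from its close copy Magohb could be divided between the 2 genes.

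The SR and TRA2 proteins, which bind exonic enhancers, had 0 of 11 called and 9 positive values, with a median of 0.05. Srsf6 read 303.7, 307.4, 325, 325.5 and 303.4 CPM in HTB and 296.8, 253.7, 287.7, 263.2 and 294.7 CPM in LTB. No LTB library reached the lowest HTB library, and the log2 fold change was 0.16 ± 0.06 (edgeR adjusted p = 0.105). Srsf2, highest of the class per length at 152 CPM per kb, did not separate, with 449.1 ± 52.9 against 450.3 ± 26.8 CPM (adjusted p = 0.983). The hnRNP, PCBP and RBMX class had 0 of 9 tested members called. Hnrnpa1, which often antagonises SR proteins, had the highest level per length of all members (423.2 CPM per kb), reading 1364 ± 91.2 CPM in HTB and 1305 ± 118.2 CPM in LTB (adjusted p = 0.617); reads from its processed copies could be divided. Hnrnpc, which binds uridine tracts, had the smallest p of its class, at 289.8 ± 21.9 and 318.3 ± 23.1 CPM (log2 fold change -0.14 ± 0.07, adjusted p = 0.240).

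Of the 17 genes with no role assigned, 6 were tested, and none was called. Gramd2 and Zbtb1 carry the pathway annotation in the deposited table although neither product is named as a splicing factor there. Zbtb1, a BTB zinc finger protein, had the highest log2 fold change of all members, 0.32 ± 0.12 (edgeR adjusted p = 0.104). It read 71.1, 51.1, 77.1, 71.1 and 73.7 CPM in HTB and 45.2, 59.7, 59.1, 52.0 and 59.6 CPM in LTB, with HTB replicate 2 inside the LTB range. Gramd2 had the lowest, -0.51 ± 0.31 (adjusted p = 0.293), at 1.07 ± 0.34 against 1.52 ± 0.47 CPM, the lowest level of the tested members. Ddx42, a helicase linked to SF3b and highest per length here, read 134.8 ± 11.2 and 127.8 ± 1.53 CPM (adjusted p = 0.433).

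Only 3 members (2.4%) had groups that did not overlap: Snrnp70 and Srsf6 above and Puf60 below in HTB, beside 11.7% of all tested genes (4.68% higher and 7.06% lower).

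**Figure D2:**
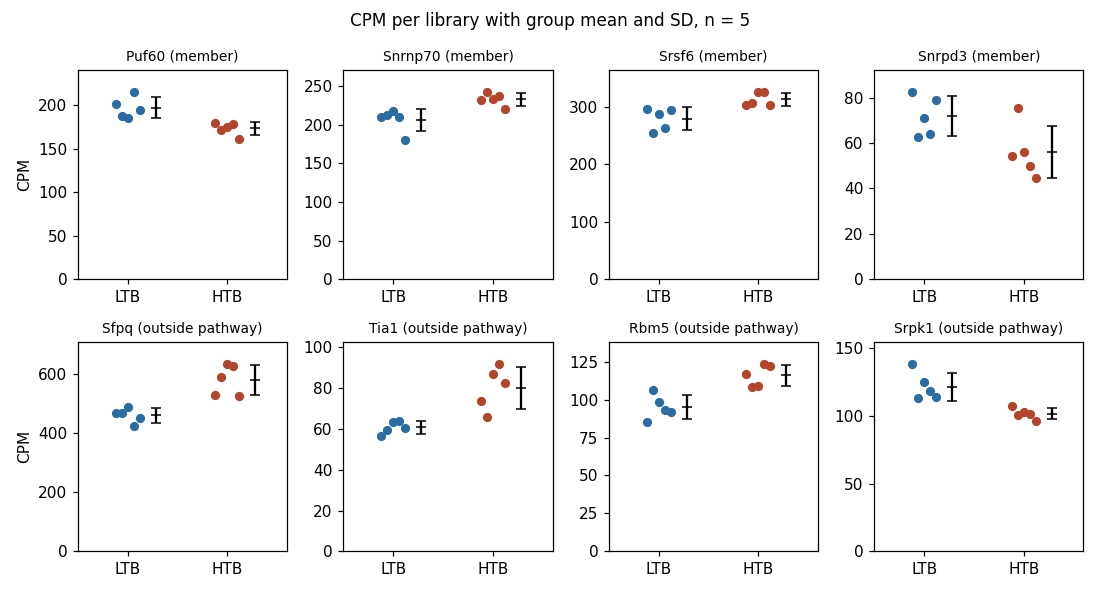
CPM in each library (points) with group mean and SD (bars, n = 5) for 4 members in the upper row and 4 splicing genes outside the KEGG pathway in the lower row. Puf60, Snrnp70 and Srsf6 separate narrowly, Snrpd3 overlaps through HTB replicate 2, and each of the 4 lower genes separates.

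In some libraries, shorter and longer members deviated differently. LTB replicate 1 was the highest library for 46 of the 125 members and HTB replicate 2 for 25, while HTB replicate 5 was the lowest for 42 and LTB replicate 5 for 35. Split at the median exon length of 3988 bases, the 62 shorter members deviated in LTB replicate 1 from their 10-library mean by 0.21 on the log2(CPM + 1) scale and the 63 longer ones by 0.01. In HTB replicate 5 the deviations were -0.16 and -0.02. In LTB replicate 5 the shorter and longer members were equally low, at -0.07 and -0.06. All tested genes showed the same order, with 0.15 and -0.04 in LTB replicate 1 and -0.12 and -0.01 in HTB replicate 5. Of the shorter members 44 of 62 (71.0%) had a negative log2 fold change, and of the longer 23 of 63 (36.5%), beside 55.7% and 41.0% among all genes. The Sm core, all short genes, deviated by 0.32 in LTB replicate 1, 0.24 in HTB replicate 2 and -0.31 in HTB replicate 5. The class of remodelling helicases and second-step factors moved the other way, at -0.12, -0.11 and 0.13. The part of length in the differences between groups was not tested.

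**Figure D3:**
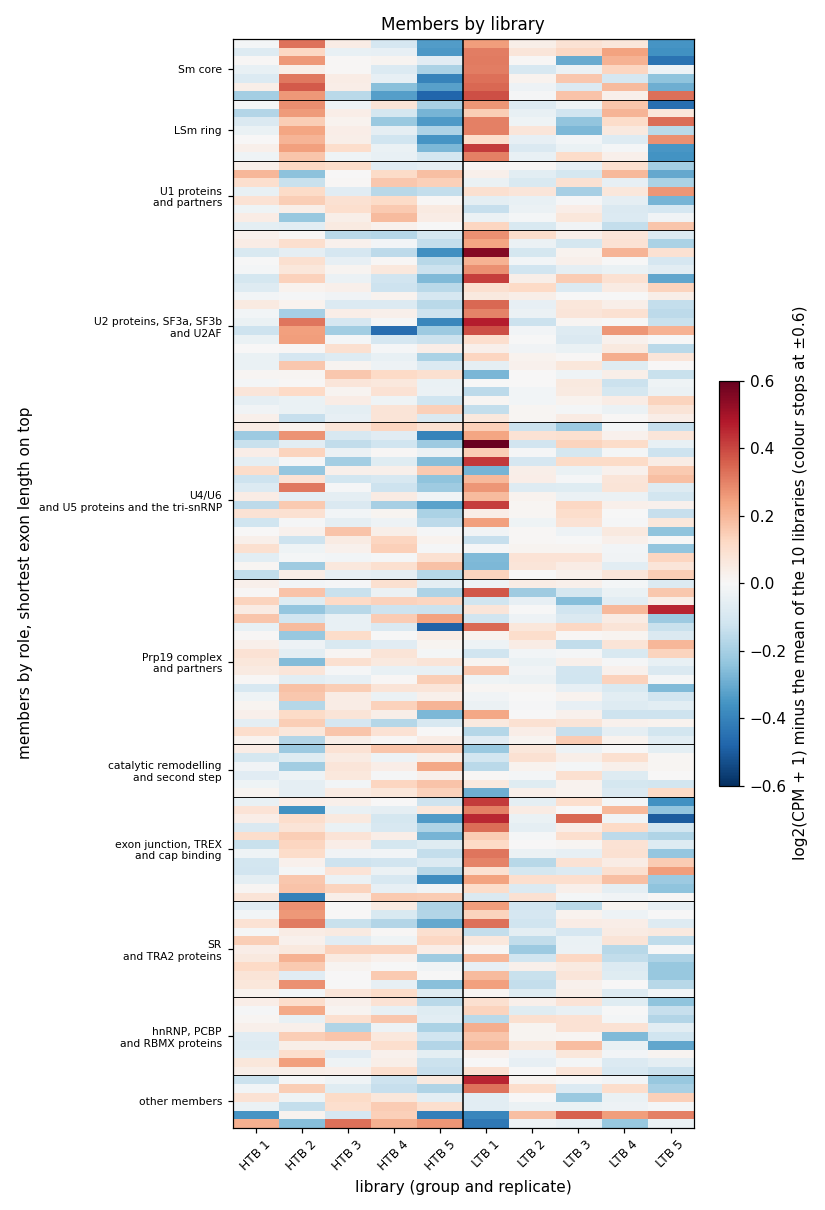
Deviation of each member's log2(CPM + 1) from its mean over the 10 libraries (colour, stopping at ±0.6), with members in rows by role and shortest exon length on top. LTB replicate 1 and HTB replicate 2 are red across the Sm core and LSm rows, and HTB replicate 5 is blue there.

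**Figure D4:**
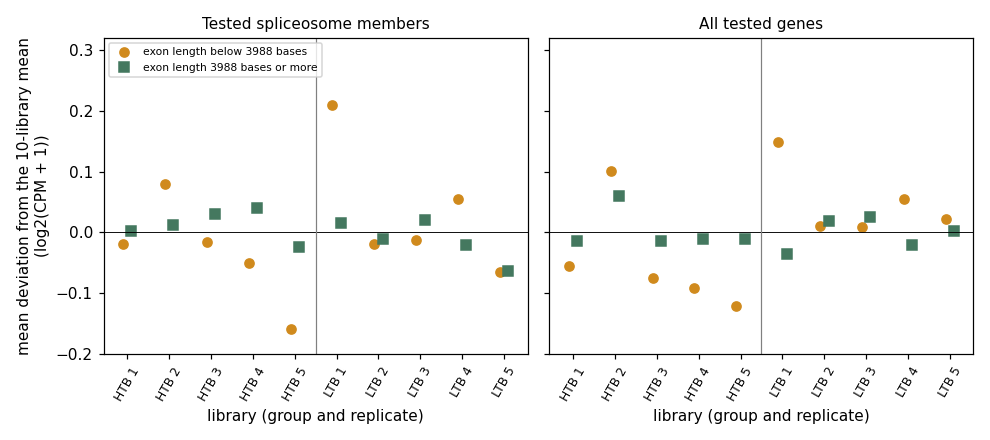
Mean deviation of log2(CPM + 1) from the 10-library mean, per library, for genes shorter (circles) and longer (squares) than 3988 bases of exon, among tested members (left) and all tested genes (right). The shorter members stand at 0.21 in LTB replicate 1 and at -0.16 in HTB replicate 5, and all genes show the same order in these 2 libraries.

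Calls among members depended on HTB replicate 2, the library rich in muscle and fat markers. Without it, edgeR called 9 members, 2 higher and 7 lower, while 22.4% of all genes were called (9.77% higher and 12.7% lower). Higher in HTB were Zbtb1 (0.41 ± 0.09, adjusted p = 0.00982) and Pqbp1 (0.23 ± 0.06, adjusted p = 0.0305). Lower were Snrpd3 (-0.48 ± 0.10, edgeR adjusted p = 0.00983), Sf3b5 of the SF3b complex (-0.42 ± 0.11, adjusted p = 0.0241) and Prpf31 of U4/U6 (-0.32 ± 0.09, adjusted p = 0.0332). The other 4 that fell were Ppih, a cyclophilin of the tri-snRNP (-0.30 ± 0.08), Snrnp40 (-0.24 ± 0.06), Eftud2, the U5 GTPase (-0.18 ± 0.06), and Prpf19, a ubiquitin ligase (-0.16 ± 0.05), with adjusted p of 0.0252, 0.0226, 0.0436 and 0.0414. The 9 are a complete list, and 5 of 9 names were taken up after their values were seen. Leaving out LTB replicate 1 as well, an alternative chosen after seeing the data, 9 were called (3 higher and 6 lower, against 21.6% of all genes, 9.26% higher and 12.4% lower): Snrnp27, a tri-snRNP protein, was added (0.21 ± 0.06, adjusted p = 0.0257) and Eftud2 was lost (adjusted p = 0.0598). Leaving out any other single library gave 0 calls among members.

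DESeq2's Wald test on all 10 libraries called 5 members, against 14.3% of all genes (6.19% higher and 8.14% lower). Acin1 (adjusted p = 0.00945), Snrnp70 (0.0216) and Srsf6 (0.0295) were higher in HTB, and Puf60 (0.0155) and Eftud2 (0.0434) were lower. The authors' deposited q-values, also headed as DESeq2's, were under 0.05 for the same 5 members and for 14.5% of all genes with a q-value. They were 0.0111 for Acin1, 0.0249 for Snrnp70, 0.0341 for Srsf6, 0.0180 for Puf60 and 0.0498 for Eftud2. Being the same method on the same libraries, they are not separate support. The fold changes were close to those of edgeR, and the fits differed in which members crossed the threshold. Eftud2 alone was among both these 5 and the 9 called without HTB replicate 2.

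**Figure D5:**
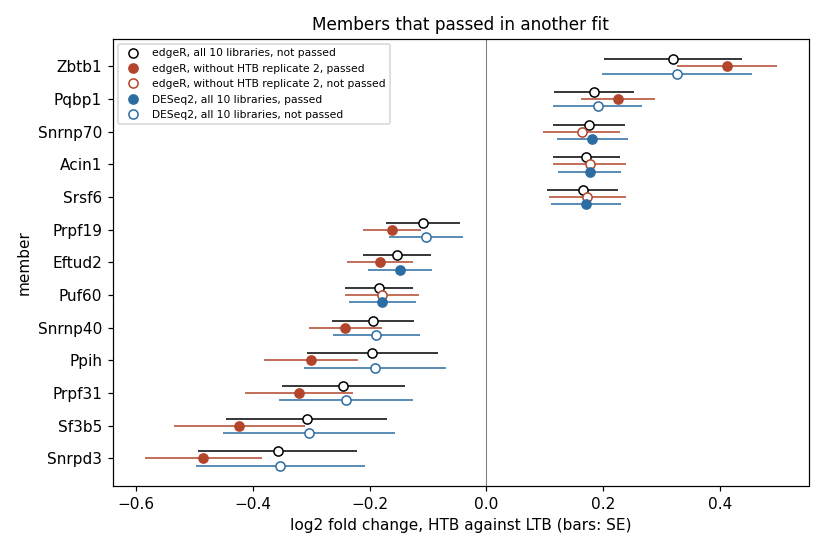
Log2 fold change with SE for the 13 members that passed in DESeq2's test on all libraries or in edgeR without HTB replicate 2; filled points passed. The sign is the same in all 3 fits, and no member passed in edgeR on all 10 libraries.

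Of 81 tested splicing genes outside the KEGG annotation, in 4 lists, 5 were called (6.17%), a smaller share than the 11.4% of all tested genes. Among 36 tested splicing regulators 3 were higher in HTB and 0 lower in edgeR's test, where 3.91% of all tested genes were higher and 7.51% lower. Their median log2 fold change was 0.11 against 0.02 for all genes. Of the 36, 14 had an unadjusted p under 0.05 in edgeR's test, a larger share than the 29.1% of all genes. Sfpq, a paraspeckle protein, read 531.6, 591.9, 633.8, 627.4 and 527.7 CPM in HTB and 470.3, 470.2, 491, 423.5 and 451.9 CPM in LTB (0.34 ± 0.07, edgeR adjusted p = 0.0160), and it passed in all 10 fits that left out a library. Tia1, which binds uridine-rich sequence next to weak 5' splice sites, read 73.9, 65.6, 86.8, 91.6 and 82.4 CPM against 56.4, 59.3, 63.2, 64.0 and 60.5 CPM (0.40 ± 0.09, edgeR adjusted p = 0.0185); without HTB replicate 3 its adjusted p was 0.0534. Rbm5, an apoptosis-linked splicing regulator, read 116.9, 108.3, 109.2, 123.2 and 122.2 CPM against 85.4, 106.3, 98.5, 93.0 and 92.1 CPM (0.29 ± 0.07, edgeR adjusted p = 0.0259). It did not pass without HTB replicate 1 (0.0505), HTB replicate 4 (0.0700), HTB replicate 5 (0.0599), LTB replicate 4 (0.0566) or LTB replicate 5 (0.0565). All 3 had HTB libraries that lay wholly above the LTB libraries.

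Of the 12 minor spliceosome genes 1 was higher, where 3.91% of all tested genes were. Rnpc3, a U11/U12 snRNP protein, read 33.6, 31.8, 36.6, 38.1 and 43.9 CPM in HTB and 29.0, 29.4, 29.9, 26.2 and 27.98 CPM in LTB (0.37 ± 0.09, edgeR adjusted p = 0.0259). It did not pass without HTB replicate 3 (0.0604), HTB replicate 4 (0.0664), LTB replicate 4 (0.0588) or LTB replicate 5 (0.0544). Zrsr1, a U2AF-like protein, did not pass (0.39 ± 0.14, edgeR adjusted p = 0.0865). Of 10 SR protein kinase and import genes 1 was lower, where 7.51% of all tested genes were. Srpk1, which phosphorylates SR proteins, read 107.6, 100.6, 102.6, 101.1 and 96.2 CPM in HTB and 138, 112.9, 124.8, 118.2 and 114 CPM in LTB (-0.26 ± 0.06, edgeR adjusted p = 0.0294), but it did not pass without HTB replicate 3 (0.0705), HTB replicate 4 (0.0727), HTB replicate 5 (0.0684) or LTB replicate 3 (0.0665). Clk3, another SR kinase, did not pass (-0.19 ± 0.07, adjusted p = 0.107). The 23 snRNP assembly genes had 0 calls in edgeR, where 11.4% of all tested genes were called. At an unadjusted p under 0.05 there were 3, beside 29.1% of all tested genes. DESeq2 called 2, beside 14.3% of all genes. The smallest adjusted p in edgeR were 0.0873 for Snupn, the snurportin import adaptor (-0.32 ± 0.11), and 0.0903 for Xpo1, the export receptor (-0.19 ± 0.07).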

How the data were processed

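RNA-seq of 10 MC38 subcutaneous tumour libraries (5 HTB and 5 LTB) was analysed from a gene table deposited by the authors. Per the labels' protocols, total RNA was column-purified and a SMARTer mRNA kit was used for the libraries; the build was GRCm38 (mm10), per the submitters' processing notes. The sources used here do not name the aligner, the counter or its strand setting; reads of overlapping or antisense genes may therefore be mixed. The authors' table holds estimated counts per gene, not scaled to depth; 86.4% were whole (tolerance 1e-09) and the others were rounded to whole numbers. The same table holds the authors' deposited log2 fold change, p-value and q-value, used only where named.

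Counts were fitted over all genes with edgeR 4.0.16 (R 4.3.3; TMM, filterByExpr, quasi-likelihood test, Benjamini-Hochberg over 13469 genes, threshold 0.05). Log2 fold changes are HTB against LTB. CPM used the reads of the tested genes in each library, multiplied by its TMM factor (0.9747 to 1.029). Exon length is the union of GENCODE M21 exons, not the length of the transcripts expressed, so levels per length depend on the annotation. Alternatives used DESeq2 1.42.0, limma 3.58.1, other scalings and filters, a replicate block and leaving out libraries. The scripts were tested on simulated data. 1 row named no gene and was left out. The smallest chi-square per degree of freedom between libraries of the same group was 10.1, so no library was treated as a repeat sequencing of another. This value cannot tell separate tumours from separate preparations of the same tumour.

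Promoters came from RefSeq GRCm38.p6 with RefSeq's strand, because the deposited strand differed for 2046 of 13895 genes compared, all 2046 matching RefSeq in GENCODE; the window nearest the deposited gene's 5' end was used. Members and lists were chosen with earlier results of these data known. Genes were named by rule: per role the called members, or that of smallest p, and that of highest level per length; the 3 largest and 3 smallest log2 fold changes; and the 2 of smallest p in each outside list. Prpf8, Eftud2, Prpf19, Sf3b5, Prpf31, Ppih, Snrnp27 and Rbm5 were added after their values were seen.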

Additional observations from a re-analysis of the deposited data

Results flagged for a closer look

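Dixon's test (critical value 0.71 for 5 libraries) marked 7 of 86 gene and group combinations. Independent combinations not picked by value would give about 1 in 20, or 4.3. These genes share the same libraries and were named partly for their values, so 4.3 is only a rough guide. In LTB replicate 1, Prpf31 read 86.07 CPM against 64.9 to 70.4 CPM in the other 4 LTB libraries, Dhx38 read 109.9 CPM against 121.8 to 125.7 CPM, and Gramd2 read 0.7195 CPM against 1.56 to 1.88 CPM. In HTB replicate 2, Pqbp1 read 47.35 CPM against 54.3 to 55.0 CPM, Zbtb1 read 51.09 CPM against 71.1 to 77.1 CPM, and Ncbp1 read 128.2 CPM against 115.6 to 118.9 CPM. In LTB replicate 5, Snrnp70 read 180.3 CPM against 209.7 to 217.8 CPM.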

How the results depend on the processing

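The count of members called in edgeR stayed at 0 higher and 0 lower with DESeq2 size factors, upper-quartile factors, limma voom, no low-count filter, a minimum of 1 CPM in 5 libraries, a threshold of 0.01 and the replicate block (0 calls, 9 members at an unadjusted p under 0.05). DESeq2's Wald test called 3 higher and 2 lower, beside 6.19% and 8.14% of all genes. A threshold of 0.1 in edgeR gave 2 higher and 3 lower. The share of all genes at that threshold was not counted, nor was the share at an unadjusted p under 0.05 with the replicate block. These counts therefore cannot be read against all genes. Over the fits that left out 1 library the counts ran from 0 to 2 higher and from 0 to 7 lower, all calls coming without HTB replicate 2. Without HTB replicate 2 and LTB replicate 1 together, chosen after seeing the data, 3 were higher and 6 lower. The cause was not tested. The members' median log2 fold change ran from -0.03 to 0.01 over those fits and was 0.02 with both libraries out. Under the replicate block, Rnpc3, Srpk1 (adjusted p = 0.0521) and Rbm5 (edgeR adjusted p = 0.0928) no longer passed, while Sfpq and Tia1 did. Same-numbered libraries correlated at 0.0070 to 0.11. Without values for differently numbered libraries beside them, these correlations cannot decide whether the numbers mark pairs. The numbers have no stated meaning in the labels and were not taken as pairs. Of 42 genes followed through the alternatives, 6 changed the sign of a log2 fold change that passed in no fit: over all alternatives Magoh ran from -0.15 to 0.05, Snrpf from -0.12 to 0.04, Srsf2 from -0.07 to 0.04, Prpf8 from -0.07 to 0.02, Cwc15 from -0.0029 to 0.04 and Dhx38 from -0.0032 to 0.11. The others kept their sign. Precision is limited by 5 libraries per group, and by few reads for members such as Gramd2.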
